A study of Homo sapiens with 6 samples.

Results

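The proteasome subunit genes were followed across RNA sequencing of U87MG cells treated with vehicle or with RSL3. The set was a fixed list of 39 genes, taken from the 65988 gene identifiers of the deposited count files by matching symbols to Ensembl identifiers. It held 14 genes of the 20S core particle, 17 of the 19S cap, 3 immunoproteasome genes, 4 activator genes and the maturation factor gene POMP. U87MG is an established human glioblastoma line, labelled wild type, and all 6 libraries came from it. The control group was vehicle (3 libraries) and the treated group was RSL3 at 2 µM (3 libraries). RSL3 is an inhibitor of the lipid peroxide-reducing enzyme GPX4 and an activator of ferroptosis, and the study asked which genes change with it. The sample labels gave no treatment time, and nothing in them said whether the replicates were separate cultures, so p-values measure the spread between these libraries, which may be technical.

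The proteasome degrades proteins that carry ubiquitin chains. Its 20S core is a barrel of stacked rings, in which alpha subunits (PSMA genes) form the gated outer rings and beta subunits (PSMB genes) the inner rings with the cutting sites. The 19S cap binds ubiquitin chains, removes them, and unfolds the substrate with a ring of ATPases (PSMC genes). In cells exposed to interferon, PSMB8, PSMB9 and PSMB10 replace the constitutive catalytic subunits PSMB5, PSMB6 and PSMB7, and the PSME1 and PSME2 products form an activator ring on the core. These forms favour the cutting of peptides for display on MHC class I. The constitutive subunit genes are commonly co-regulated, with NFE2L1 as the transcription factor that raises them when the proteasome is inhibited.

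Total counts per library ranged from 27813462 to 43306335. Counts were scaled by TMM to the mean library size (normalized counts), and 16105 genes that passed edgeR's filter on low counts were tested between the groups by its quasi-likelihood F test. A gene was called at a Benjamini-Hochberg adjusted p under 0.05. Fold changes carry their standard error (SE), and positive log2 fold changes mean higher in RSL3. The mitochondrial share of counts was 0.918% to 1.26% in control and 0.84% to 0.912% in RSL3 libraries, and its part in the results was not tested. Of 8 glioma markers, only SOX2 stayed under 10 counts in every library, and the summed marker level was 4831 to 5036 CPM (counts scaled by library total) in control and 4068 to 4322 in RSL3 libraries. VIM, which encodes vimentin, led this list with 68288 normalized counts in control cells, while the astrocyte marker GFAP and the neural stem cell marker NES were low, at 104 and 153. The summed level of 6 microglial and immune markers was 2.87 to 3.63 CPM in control and 2.34 to 3.52 in RSL3 libraries, with 4 of the 6 under 10 counts in every library. In the same order of groups, 4 endothelial and epithelial markers summed to 0.683 to 1.12 and 0.536 to 1.28. The sums for 4 neuronal markers, led by SYT1, were 30.7 to 33.1 and 33.2 to 33.9. Within this list SYT1 was called higher (log2 fold change 0.24, adjusted p = 0.00214 by edgeR). SNAP25 was called lower (-1.04, adjusted p = 4.84e-05 by edgeR), NEUROD1 was not called and RBFOX3 was not tested.

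Proteasome transcripts differed between RSL3 and control by small amounts, with different directions among the roles. Of 39 genes, 37 passed the filter, and 15 of these were called, 10 higher and 5 lower. Over all genes tested, 25.6% were called, 12.9% higher and 12.7% lower. Cap genes were called only higher (6 of 17 tested), and of these only PSMC5 kept its call with any single library left out. Core genes were called in both directions (2 higher, 2 lower, of 14 tested). All 4 activator genes were called, with PSME3 and PSME4 higher and PSME1 and PSME2 lower. PSMB10, the immunoproteasome gene that could be tested, was lower. The median log2 fold change was 0.03 over the 37 genes, 0.06 over the cap and 0.00 over the core, against -0.00 over all genes tested. The largest changes were in PSMB3 (-0.82, from few counts), PSMB10 (-0.33) and PSME4 (0.26). The RSL3 and control libraries did not overlap for 20 of the 37 genes, 13 higher and 7 lower, and they did not overlap for 38.6% of all genes tested. The listed genes took 0.494% to 0.51% of all counts in control libraries and 0.508% to 0.517% in RSL3 libraries.

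**Figure D1:**
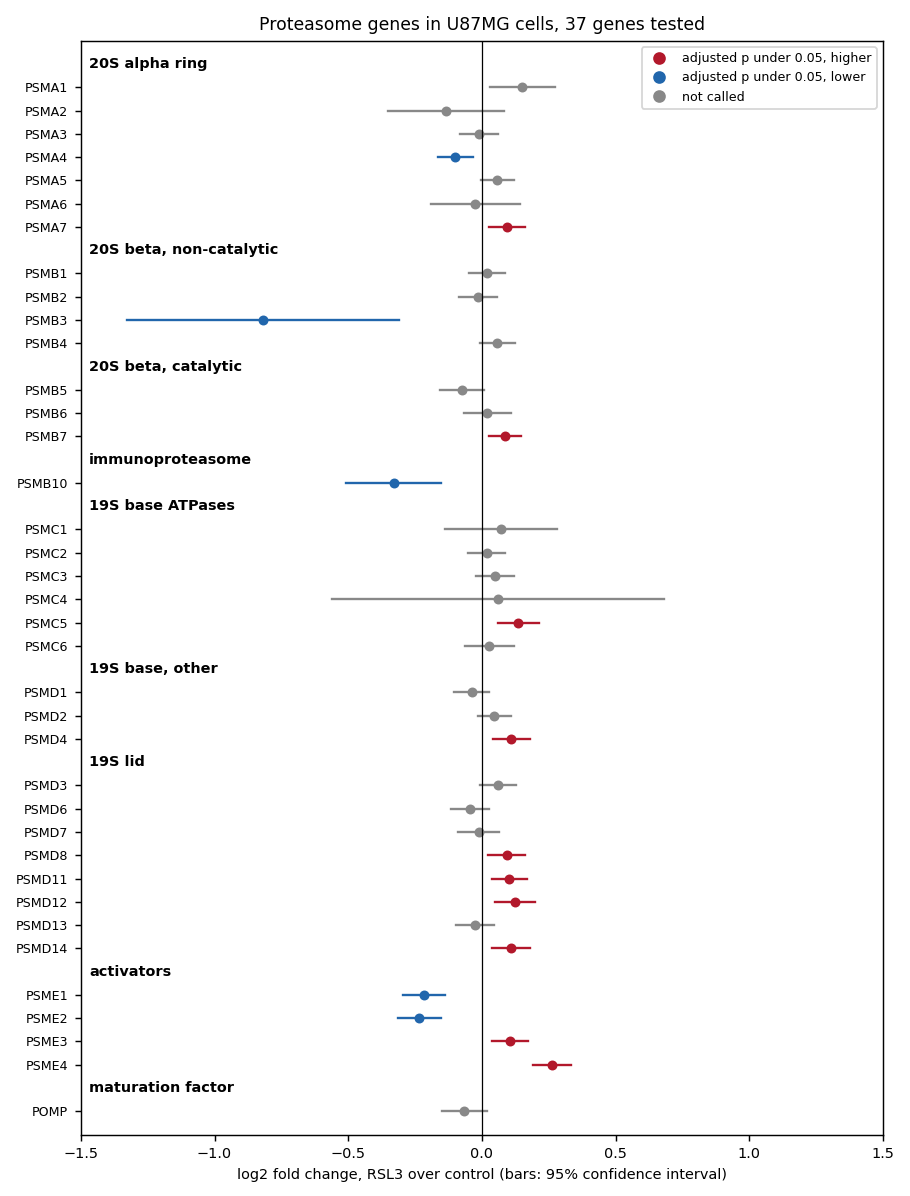
Log2 fold change of each tested proteasome gene, RSL3 over control, by role in the complex, with 95% confidence intervals from edgeR over 3 libraries per group. Red and blue points passed the adjusted p threshold, 10 higher and 5 lower, and PSMB3 and PSMC4 have the widest intervals.

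**Figure D2:**
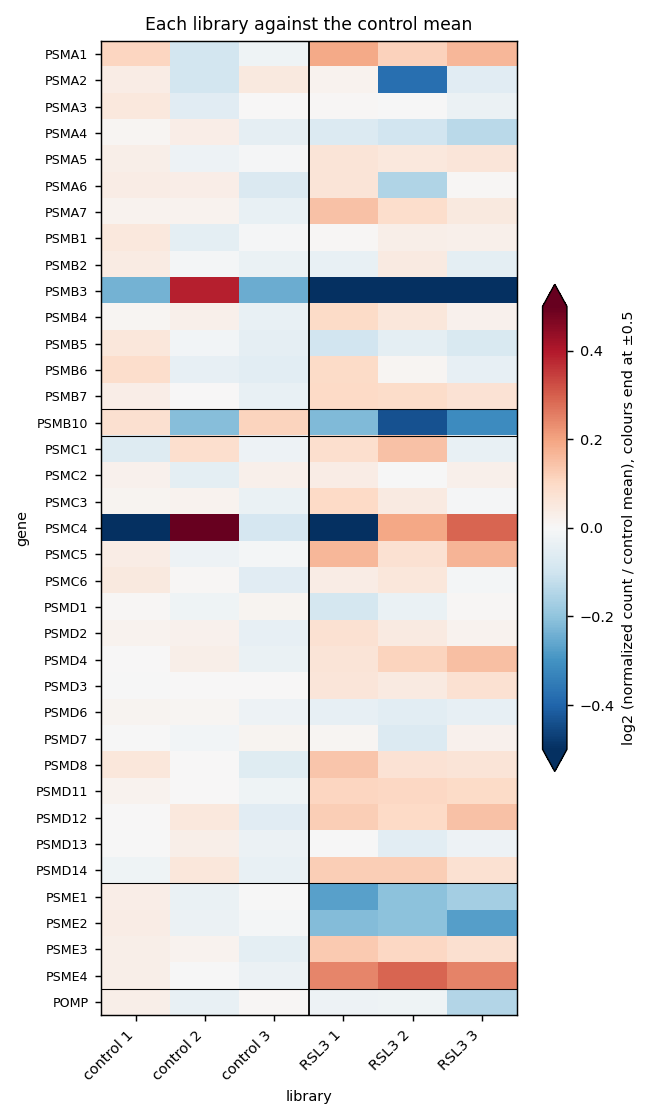
Log2 ratio of each library's normalized count to the control mean for the 37 tested genes, in 3 control and 3 RSL3 libraries, with colours ending at ±0.5 so that PSMB3 and PSMC4 saturate. Horizontal lines separate core, immunoproteasome, cap, activators and POMP, and the PSME1 and PSME2 rows are blue in every RSL3 library while PSME4 is red in each.

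Some of these genes were counted far below the level of their partners. Per kilobase of annotated exon, control levels ran from 19.2 normalized counts for PSMC4 to 7108 for PSMB7. PSMA2, PSMC1, PSMB3 and PSMA6 came next after PSMC4, at 41.3 ± 2.17, 45.4 ± 2.45, 61.1 ± 16.4 and 79.5 ± 3.37 (SD, n = 3). The next gene above, PSMC6, was at 235 ± 8.86 (SD, n = 3). Apart from PSMB7, the highest were PSMA7 at 5409 ± 119, PSMB4 at 3754 ± 84.3 and PSMD8 at 3231 ± 132 (SD, n = 3), and each of these gaps was larger than the SD of the genes on either side. The gap between PSMB3 and PSMC1 was smaller than the SD of PSMB3. The exon length is the union over all annotated transcripts, which lowers the value of genes with long minor transcripts.

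Neighbouring genes set limits on several of these levels. PSMC4 held 288 counts over the 6 libraries, and its 10 nearest protein-coding genes had a median of 26 counts. FBL, the gene of the abundant nucleolar protein fibrillarin, lies nearby on chromosome 19 and held 206. PSMB3 held 331 counts, and its 10 nearest protein-coding genes, on chromosome 17, had a median of 103, with RPL23 in the same window at 147787. PSMB8 and PSMB9 lie in the MHC region of chromosome 6, where 119 of 146 protein-coding genes between HLA-F and TAPBP (29722775 to 33314284, GRCh38) stayed under 10 counts in every library. Over the rest of chromosome 6 this held for 303 of 880. In the MHC region TUBB, a tubulin gene that dividing cells use, held 5 counts in all. These values are therefore given as what the files list and not as absence or low expression, and the reason for the low counts was not tested. Exons shared with other genes matter too, because the counting ignored strand and assigned a read in a shared stretch to neither gene. NRDE2 covers 76.1% of the exon bases of PSMC1, and other annotated genes cover 29.7% of PSMA2, 26.7% of PSMA1 and 14.1% of PSMA6. In all, 18 of the 39 genes share exon bases with another gene, and 8 of the 21 that share none were called, 6 higher and 2 lower. Pseudogenes are a further limit for PSMC1. Its 13 pseudogenes held 1306 counts over the 6 libraries against 1701 for the gene, 43.4% of the counts of gene and pseudogenes together. The next largest share was 2.35%, for PSMA6.

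**Figure D3:**
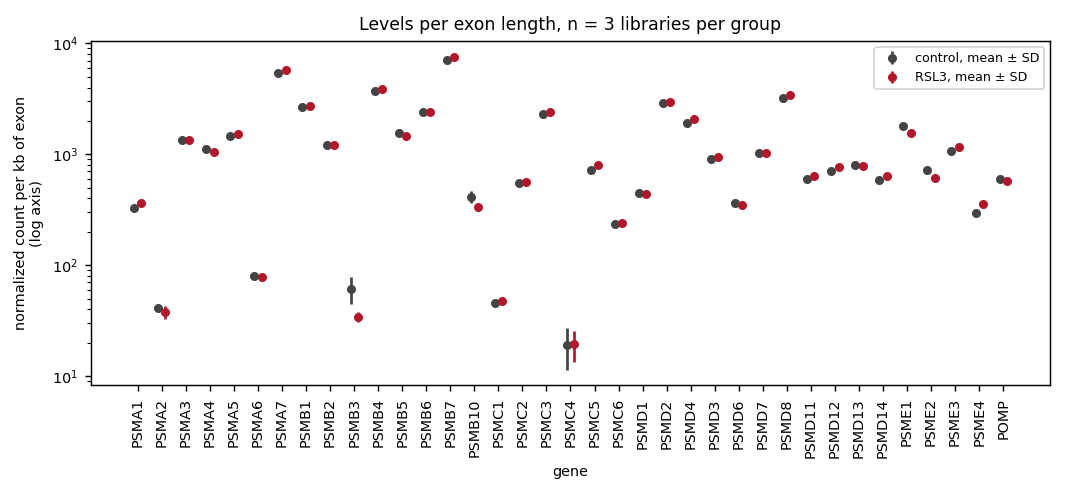
Normalized count per kilobase of annotated exon on a log axis for the 37 tested genes, mean ± SD of 3 libraries per group. PSMB7 is highest at 7108 in control, and PSMA2, PSMA6, PSMB3, PSMC1 and PSMC4 lie under 100.

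In the alpha ring, PSMA7 was higher and PSMA4 lower in RSL3, and the other 5 genes were not called. PSMA7 (ENSG00000101182, chromosome 20, 62136733 to 62143440) had normalized counts of 9600, 9593 and 9236 in control replicates 1 to 3 and 10488, 10067 and 9797 in RSL3 replicates 1 to 3. Every RSL3 library was above every control library. The log2 fold change was 0.09 (SE 0.03, adjusted p = 0.0341 by edgeR). PSMA4 (ENSG00000041357, chromosome 15, 78540405 to 78552417) went the other way, from 7860, 7974 and 7556 to 7429, 7296 and 7105. Its libraries did not overlap either, and the log2 fold change was -0.10 (SE 0.03, adjusted p = 0.0253 by edgeR). PSMA6 had the largest p of the ring, with 530, 529 and 492 in control and 540, 466 and 519 in RSL3, and its groups overlapped. PSMA1 lay above the threshold (log2 fold change 0.15, 95% confidence interval 0.03 to 0.27, adjusted p = 0.0583 by edgeR), with every RSL3 library above the control libraries. It was called higher without control replicate 1 (adjusted p = 0.0163 by edgeR) and with GC content offsets. With those offsets neither PSMA4 nor PSMA7 was called. PSMA2, PSMA3 and PSMA5 had log2 fold changes of -0.13, -0.01 and 0.06.

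Among the non-catalytic beta genes, PSMB3 was called lower and PSMB1, PSMB2 and PSMB4 were not called. PSMB3 (ENSG00000277791, chromosome 17, 38752741 to 38764225) had normalized counts of 60.5, 93.5 and 60.1 in control and 41.4, 35.3 and 42.9 in RSL3 libraries. The groups did not overlap, but control replicate 2 stood well above the other control libraries. The log2 fold change was -0.82 (SE 0.24, adjusted p = 0.0166 by edgeR), and without control replicate 2 or without RSL3 replicate 2 the gene was not called. Of its 10 neighbours, 6 were tested and none was called. Their median log2 fold change was 0.00, with 3 of the 6 below 0. PIP4K2B, next to PSMB3, had 42.4 ± 14.5 (SD, n = 3) in control and 24.0 ± 6.93 (SD, n = 3) in RSL3 (adjusted p = 0.0917 by edgeR). PSMB4 had 8028, 8124 and 7777 normalized counts in control and 8531, 8284 and 8090 in RSL3, with overlap (log2 fold change 0.06, adjusted p = 0.201 by edgeR). PSMB2 had 5700, 5509 and 5408 in control and 5392, 5721 and 5349 in RSL3, also with overlap, and PSMB1 had a log2 fold change of 0.02.

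The constitutive catalytic genes had log2 fold changes between -0.07 and 0.09. PSMB7, which encodes the trypsin-like site, had 13002, 12738 and 12387 normalized counts in control and 13623, 13535 and 13356 in RSL3 libraries. All RSL3 libraries lay above the control libraries, and the log2 fold change was 0.09 (SE 0.03, adjusted p = 0.0309 by edgeR). PSMB5, the chymotrypsin-like site and the main target of bortezomib, had 2490, 2373 and 2322 in control and 2243, 2318 and 2270 in RSL3. Its RSL3 libraries were all below the control libraries but close to them, and it was not called (log2 fold change -0.07, 95% confidence interval -0.16 to 0.01, adjusted p = 0.19 by edgeR). PSMB6, the caspase-like site, had 3664, 3359 and 3331 in control and 3687, 3478 and 3354 in RSL3. Its groups overlapped, and the log2 fold change of 0.02 had a 95% confidence interval of -0.07 to 0.11.

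PSMB10, the interferon-inducible replacement for PSMB7, fell while PSMB7 rose. PSMB10 (ENSG00000205220) lies on chromosome 16 from 67934506 to 67936864. Its normalized counts were 713, 582 and 728 in control and 578, 498 and 543 in RSL3 libraries. The groups did not overlap, although control replicate 2 lay close to RSL3 replicate 1. The log2 fold change was -0.33 (SE 0.09, adjusted p = 0.00621 by edgeR), a level 20.4% below control by the fitted fold. Without RSL3 replicate 2 the adjusted p from edgeR was 0.0501. An overlapping gene, ENSG00000261884, covers 39.4% of the exon bases of PSMB10, and it held 36.1 ± 14.9 (SD, n = 3) normalized counts in control and 27.8 ± 3.70 (SD, n = 3) in RSL3. The PSMB10 count as a percent of the PSMB7 count was 5.49, 4.57 and 5.88 in control and 4.24, 3.68 and 4.07 in RSL3 libraries. The log2 ratio in RSL3 minus that in control was -0.40, with p = 0.1 in a two-sided exact permutation test over the 6 libraries, the smallest p that 3 against 3 can give. Of the 3 planned pairs it was the only one with a ratio, so there was nothing to adjust over.

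PSMB8 and PSMB9 could not be compared. The files list PSMB8 at 2, 2 and 0 counts in control and 0 in each RSL3 library. PSMB9 has 2 counts in RSL3 replicate 2 and 0 in every other library. Their annotated spans overlap on chromosome 6, PSMB8 from 32840717 to 32844679 and PSMB9 from 32844136 to 32859851, and they share some exon bases. TAP1, which encodes a subunit of the peptide transporter and lies within the annotated span of PSMB9, has a single count in RSL3 replicate 2.

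The promoters of PSMB8, PSMB10, PSME1 and PSME2 carry a shared stretch, which the promoter window of PSMB9 does not hold. RefSeq promoters (GRCh38.p14, 250 bases before to 50 after each start) were found for 34 of the 39 genes. They were searched on both strands for the core of the interferon-stimulated response element, the letters GAAA, any 2 bases and GAAA again. It is in the promoters of 4.38% of all genes in the table and of 6 of the 34. Of the 5 genes called lower, 4 hold it (PSMA4, PSMB10, PSME1 and PSME2), as do PSMB4, which was not called, and PSMB8, which was not tested. None of the 7 genes called higher that have a promoter in the table holds it. The windows of the immunoproteasome and activator genes are shown because the match there is nearly the same in each, with the motif, or its reverse complement, in capitals and each sequence on the strand of its gene.
PSMB10, chr16:67936851-67936886, minus strand: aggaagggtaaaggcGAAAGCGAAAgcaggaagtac
PSME2, chr14:24146614-24146653, minus strand: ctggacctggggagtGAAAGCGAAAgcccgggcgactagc
PSME1, chr14:24136184-24136208, plus strand: cgagcgccctaccgcTTTCGCTTTC
PSMB8, chr6:32844042-32844066, minus strand: ccttcgatctgtggcTTTCGCTTTC
The same letters stand in all of these, GAAAGCGAAA read on one strand or the other. A match describes the window and is not evidence that a factor binds there.

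The activators split by kind. PSME1 and PSME2 encode the subunits of the interferon-inducible PA28 alpha-beta ring, and both fell. PSME1 (ENSG00000092010, chromosome 14, 24136163 to 24138967) had 3294, 3144 and 3212 normalized counts in control and 2663, 2793 and 2858 in RSL3 libraries. PSME2 (ENSG00000100911, chromosome 14, 24143362 to 24147570) had 2662, 2541 and 2577 in control and 2230, 2250 and 2144 in RSL3. In both genes every RSL3 library was below the lowest control library. The log2 fold changes were -0.22 (SE 0.04, adjusted p = 0.000177 by edgeR) and -0.23 (SE 0.04, adjusted p = 1e-04 by edgeR), which are levels 13.9% and 14.9% below control. These neighbouring genes kept their calls with any single library left out.

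PSME3 and PSME4, which encode the nuclear PA28 gamma ring and the PA200 activator, rose. PSME4 (ENSG00000068878, chromosome 2, 53864069 to 53970993) had 3119, 3056 and 3001 normalized counts in control and 3628, 3747 and 3630 in RSL3 libraries. The groups were far apart compared with the spread inside each, and the log2 fold change was 0.26 (SE 0.03, adjusted p = 7.29e-06 by edgeR), a level 19.9% above control. It was the only one of the 15 called genes that was called in the same direction under all 16 alternative fits. PSME3 (ENSG00000131467, chromosome 17, 42824385 to 42843760) rose less, from 5669, 5628 and 5378 to 6091, 5979 and 5873. Its log2 fold change was 0.11 (SE 0.03, adjusted p = 0.0204 by edgeR), and it was not called without control replicate 3, without RSL3 replicate 1 or without RSL3 replicate 2. BECN1, on the neighbouring locus, covers 5.82% of the exon bases of PSME3.

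**Figure D4:**
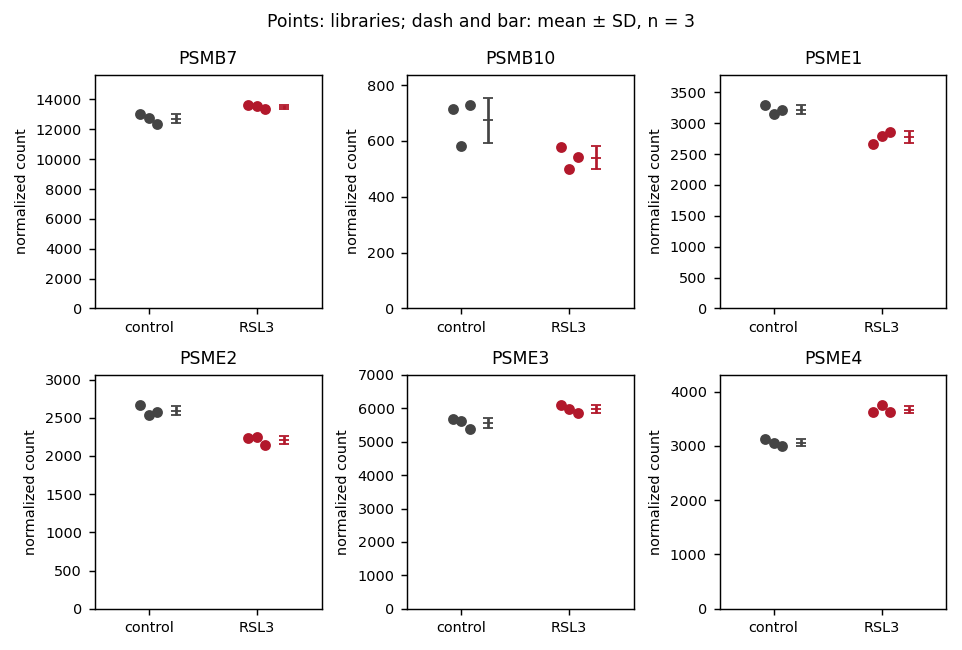
Normalized counts of PSMB7, PSMB10 and the 4 activator genes, with each point a library, the dash and bar the mean ± SD of 3 libraries, and axes starting at 0. PSMB10, PSME1 and PSME2 are lower in RSL3 and PSMB7, PSME3 and PSME4 higher, without overlap between the groups.

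Within the cap, the ATPase genes had log2 fold changes from 0.02 to 0.14 in the main fit, and PSMC5 was the one called. All were above 0 there, but PSMC1, PSMC2 and PSMC4 fell below 0 in at least 1 alternative fit. Across those fits PSMC1 ranged from -0.09 to 0.13, PSMC2 from -0.01 to 0.06 and PSMC4 from -0.21 to 0.38. PSMC5 (ENSG00000087191, chromosome 17, 63827152 to 63832026) had 3195, 3058 and 3092 normalized counts in control and 3497, 3286 and 3502 in RSL3 libraries. No RSL3 library reached down to the control range, and the log2 fold change was 0.14 (SE 0.04, adjusted p = 0.0085 by edgeR). It kept its call with any single library left out. PSMC3 had 5348, 5367 and 5183 in control and 5684, 5469 and 5285 in RSL3, with overlap (log2 fold change 0.05, adjusted p = 0.344 by edgeR). PSMC4 had 30.6, 70.1 and 46.2 in control and 32.2, 56.1 and 59.9 in RSL3. Its libraries varied more inside each group than between them, and its log2 fold change had the widest interval of the 37 genes, from -0.56 to 0.68 on the log2 scale, so a sizeable change in it could not be detected. PSMC1, PSMC2 and PSMC6 were not called.

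The other base genes are PSMD1 and PSMD2, large scaffold subunits, and PSMD4, a ubiquitin receptor. PSMD4 (ENSG00000159352, chromosome 1, 151254709 to 151267479) rose from 5790, 5899 and 5655 to 6044, 6238 and 6423 normalized counts, with no overlap (log2 fold change 0.11, SE 0.03, adjusted p = 0.017 by edgeR). PSMD2 had 14452, 14495 and 13848 in control and 15053, 14710 and 14430 in RSL3. PSMD1 had 7124, 6982 and 7151 in control and 6664, 6916 and 7117 in RSL3. Both genes had overlapping groups and neither was called. Another ubiquitin receptor of the cap, ADRM1, which was outside the list, rose from 3331, 3276 and 3071 to 3951, 3765 and 3753 (log2 fold change 0.24, SE 0.04, adjusted p = 5.02e-05 by edgeR). LAMA5 and another gene cover 17.2% of its exon bases.

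Of the 8 lid genes, 4 were called higher and none lower, against 12.9% higher and 12.7% lower over all genes tested. With each library left out in turn, PSMD8 and PSMD14 kept their calls in 2 of 6 fits, PSMD11 in 3 and PSMD12 in 5. PSMD12 (ENSG00000197170, chromosome 17, 67337916 to 67366605) had 3770, 3910 and 3620 normalized counts in control and 4099, 4040 and 4164 in RSL3 libraries. PSMD11, whose product is a scaffold subunit of the lid, had 4294, 4254 and 4186 in control and 4575, 4561 and 4540 in RSL3. Neither gene's groups overlapped, and the log2 fold changes were 0.12 (SE 0.04, adjusted p = 0.0124 by edgeR) and 0.10 (SE 0.03, adjusted p = 0.0207 by edgeR). PSMD14, the deubiquitinase that removes chains from the substrate, rose from 4285 ± 145 to 4616 ± 86.9 (SD, n = 3), and PSMD8 from 13934 ± 567 to 14860 ± 427 (SD, n = 3). PSMD7, the partner of PSMD14 in the lid, had the largest p, with 2790, 2764 and 2822 in control and 2814, 2662 and 2830 in RSL3, and its groups overlapped. PSMD3 had all RSL3 libraries above control and PSMD6 all below, with log2 fold changes of 0.06 and -0.05, and neither was called. PSMD13 had -0.03.

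Many of the calls depended on which libraries entered the fit. Leaving out a library in turn, the count of called genes among the 39 was 7 without control replicate 3, 9 without RSL3 replicate 1 and 5 without RSL3 replicate 2, against 15 with all libraries. The higher calls went from 10 to 2 without control replicate 3, and PSMC5 was then the only cap gene called. They went to 4 without RSL3 replicate 1 and to 3 without RSL3 replicate 2. The lower calls went from 5 to 3 without control replicate 2 and to 2 without RSL3 replicate 2. Over all genes the same fits called between 3081 and 3924, against 4123. Only PSMC5, PSME1, PSME2 and PSME4 kept their calls in all 6 of these fits. Besides PSMB3, PSMB10 and PSME3, the calls of PSMA4, PSMA7, PSMB7, PSMD4, PSMD8, PSMD11, PSMD12 and PSMD14 each depended on at least one library. The study's methods name DESeq2 after surrogate variable analysis, without the number of variables. DESeq2 with 2 surrogate variables called only PSMD8 and PSME4 among the 39. In that fit the adjusted p was 0.0613 for PSME1, 0.0686 for PSME2 and 0.0577 for PSMB10. Of the related genes described next, PSMG2, PSMD10, NGLY1, UBB, UBQLN4, UFD1, TAPBPL and IRF1 were not called in that fit.

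POMP, a factor in the assembly of the core, had 3033, 2895 and 2981 normalized counts in control and 2922, 2926 and 2679 in RSL3. Its groups overlapped and it was not called (log2 fold change -0.07, 95% confidence interval -0.15 to 0.02). Of the 8 other assembly chaperones, all tested, 2 were called lower and none higher, with a median log2 fold change of -0.06. Over all genes tested, 25.6% were called, so calls in either direction were not more frequent in this list. The groups did not overlap for 3 genes that were lower and for PSMD9, which was higher (log2 fold change 0.11) but not called. PSMD10 (gankyrin), a chaperone of the 19S base, fell from 2773, 2873 and 2796 to 2491, 2499 and 2442 (log2 fold change -0.18, SE 0.04, adjusted p = 0.000658 by edgeR). PSMG2, a chaperone of the alpha ring, fell from 1807 ± 27.3 to 1647 ± 42.1 (SD, n = 3, adjusted p = 0.0239 by edgeR), and it was not called without control replicate 1, control replicate 2 or RSL3 replicate 1. Among 12 further subunits and bound proteins, 10 were tested and ADRM1 was the only call (10.0%, against 25.6% over all genes tested). USP14, SEM1, PSMF1 and ECPAS had log2 fold changes of -0.03, -0.00, -0.05 and -0.02.

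Of 4 genes that control proteasome transcription, only NGLY1 was called. NFE2L1 had 66782, 68082 and 68139 normalized counts in control and 65658, 65556 and 65371 in RSL3 libraries. Its RSL3 libraries were all lower, by little, and it was not called (log2 fold change -0.05, 95% confidence interval -0.10 to 0.00, adjusted p = 0.172 by edgeR). NFE2L2, which encodes NRF2, had a log2 fold change of 0.01 with an interval of -0.06 to 0.08. NGLY1, the glycanase that acts on the NFE2L1 protein, rose from 2081 ± 73.9 to 2387 ± 67.8 (SD, n = 3, log2 fold change 0.20, adjusted p = 0.00104 by edgeR). The protease gene DDI2 had -0.00. The antioxidant response element core TGACNNNGC, which NFE2L1 and NFE2L2 can bind with their partners, is in 11 of the 34 promoters and in those of 16.1% of all genes in the table. It is held by 3 of the 7 genes called higher that have a promoter there (PSMC5, PSMD12 and PSME4) and by 4 of the 5 called lower. The CCAAT box is in 17 of the 34 and in 39.7% of all genes.

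Most calls among the ubiquitin and shuttle genes were higher in RSL3. Of 14 such genes, 42.9% were called, 5 higher and 1 lower, against 25.6% over all genes tested. NPLOC4 rose from 7351, 7297 and 7072 to 8095, 7986 and 7834 normalized counts, without overlap (log2 fold change 0.14, SE 0.03, adjusted p = 0.00174 by edgeR). Genes called higher with a larger p included UBQLN4 (0.15), RPS27A (0.11) and UBB (0.09), these 3 named after their values were seen. With each library left out in turn, UBB kept its call in 1 of 6 fits, RPS27A in 3 and UBQLN4 in 4. NPLOC4 and UFD1 encode the partners that guide the unfoldase VCP, and UFD1 went the other way, from 1847 ± 67.5 to 1637 ± 78.8 (SD, n = 3, log2 fold change -0.18, adjusted p = 0.00709 by edgeR). UFD1 was not called without RSL3 replicate 2. VCP had a log2 fold change of 0.05 and was not called.

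Among the genes of antigen processing, the larger calls were lower in RSL3. Of 18 genes, 14 were tested, and 50.0% of these were called, 5 lower and 2 higher, against 25.6% over all genes tested. Their median log2 fold change was -0.21. ERAP2, a peptide-trimming enzyme of the endoplasmic reticulum, fell from 2312, 2307 and 2494 to 1560, 1740 and 1747 normalized counts (log2 fold change -0.49, SE 0.05, adjusted p = 1.05e-07 by edgeR). B2M, the light chain of MHC class I, fell from 11518, 10041 and 10741 to 8815, 8235 and 7984 (log2 fold change -0.37, SE 0.04, adjusted p = 1.09e-06 by edgeR). Genes called lower also included TAPBPL (-0.44) and IRF1 (-0.15), named after their values were seen. IRF1 encodes a transcription factor of the interferon response. CALR and PDIA3, general chaperones of the endoplasmic reticulum that also load MHC class I, rose by 0.20 and 0.13 on the log2 scale. Among the genes in the MHC region, 18 of 146 passed the filter, and of these 4 were called lower and none higher. Over all genes tested, 12.7% were called lower and 12.9% higher. As 119 of the 146 stayed under 10 counts in every library, no reading of the antigen processing list was drawn from them.

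**Figure D5:**
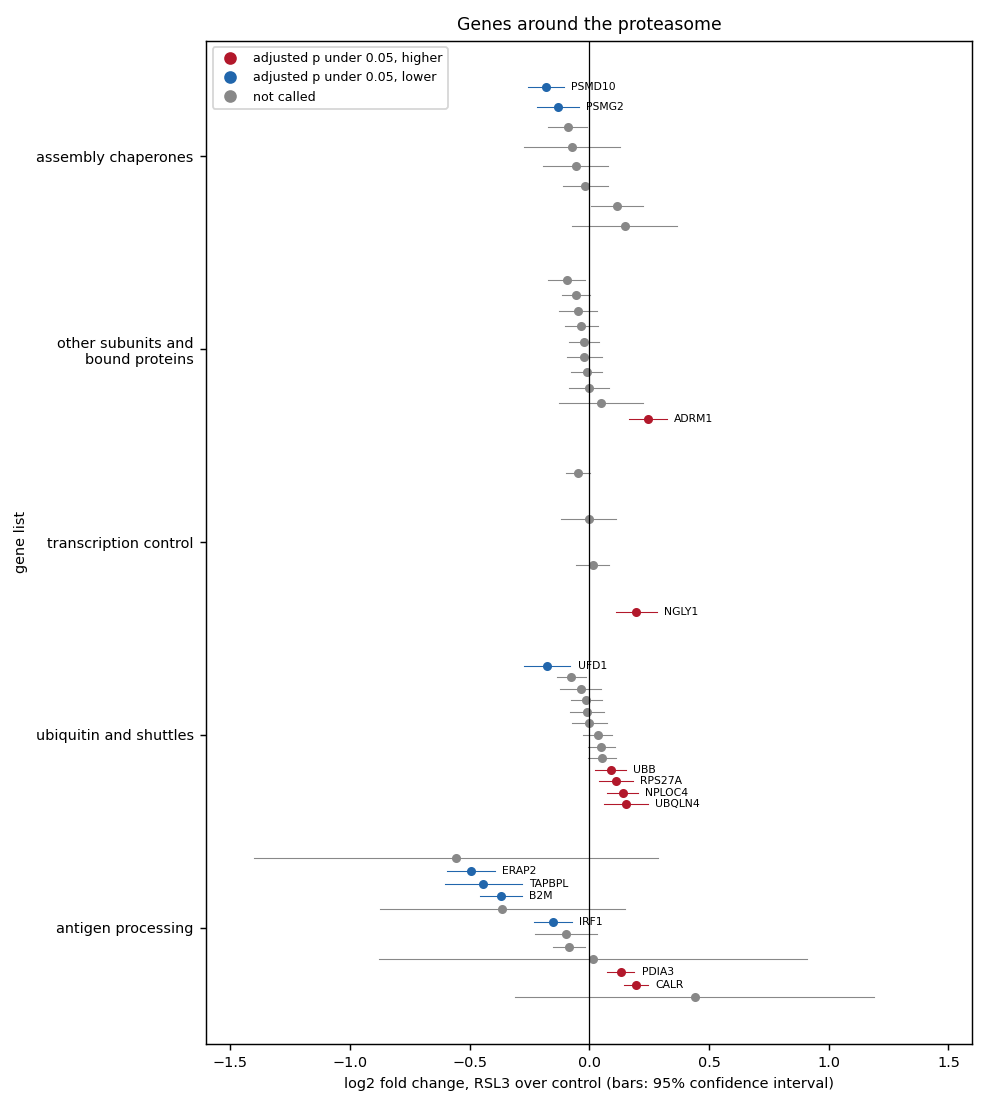
Log2 fold change with 95% confidence interval for the tested genes reported here from 5 lists around the proteasome, RSL3 over control, with names for the genes called. ADRM1 and NGLY1 stand on the higher side, and ERAP2, TAPBPL and B2M at -0.49, -0.44 and -0.37 lie lowest among the genes called.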

How the data were processed

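Poly(A) RNA of U87MG cells (3 control and 3 RSL3 libraries) was sequenced in pairs. HISAT2 was the aligner of the authors and GRCh38.p4 their build, after trimming by Trimmomatic 0.36 and then Fastp. Their counter was HTSeq 0.6.1p1, run over exons without strand. The deposited values are raw read counts per Ensembl gene. The annotation release is not given in the sources used here. Symbols matched 56434 of 65988 identifiers. Positions, exon overlaps and lengths came from GENCODE v44 (GRCh38), so overlaps hold only where both annotations share exons.

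Counts were tested in R 4.3.3 with edgeR 4.0.16 (filterByExpr with a minimum count of 10, TMM, quasi-likelihood F test, no covariates), with DESeq2 1.42.0 and sva 3.50.0 as alternatives and SciPy 1.17.1 for the exact permutation test. Confidence intervals use the edgeR standard error. The fit was tested on simulated data. Named genes were the catalytic and immunoproteasome subunits, the smallest and largest p in each role, and the smallest p in each related list. Other genes are named beside counts or as neighbours, and were picked after their values were seen. The members and lists were chosen with earlier results of these data known. Totals of 27813462 to 43306335 counts limit precision for genes with few counts.

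Alternatives were other size factors, filters, DESeq2 with 0 to 2 surrogate variables, a replicate block, added pseudogene counts, a stricter threshold and each library left out. GC offsets and subsets of members were added after seeing the data. Results for some genes of the related lists are not reported here, although the counts over each list include them.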

Additional observations from a re-analysis of the deposited data

How the results depend on the processing

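With all libraries, 15 of the tested proteasome genes were called, 10 higher and 5 lower. These counts stayed within 1.5 times under DESeq2's size factors, total counts, either other filter, DESeq2 with 0 or 1 surrogate variable, added pseudogene counts, GC content offsets and the set without PSMB3 and PSMC4 (the last of these and the offsets were chosen after seeing the data). The genes behind these counts were not always the same. With the offsets PSMA4, PSMA7 and PSMD8 lost their calls and PSMA1 was called, and PSMD8 also lost its call with total counts. DESeq2 with 2 surrogate variables called 2, 2 higher and 0 lower. An adjusted p under 0.01 left 5, 2 higher and 3 lower. The genes that share no exon base, also chosen after seeing the data, gave 8, 6 higher and 2 lower, of 21. With a library left out, the counts ranged from 5 to 14 in all, 2 to 10 higher and 2 to 5 lower. Fewer libraries or genes enter these fits by construction. For the surrogate variables the cause was not tested. The number of all genes called was 1328 with 2 surrogate variables and 2691 at the stricter threshold, against 4123. With 2 surrogate variables the median log2 fold change, all members, was 0.06, and for the cap 0.09. The PSMB10 to PSMB7 log2 ratio of -0.40 ranged from -0.51 to -0.33 with a library left out. No called gene changed sign. The replicate numbers were not taken as pairs, since same-numbered libraries deviated together with r of only 0.0222, 0.0273 and 0.0745 across 16105 genes. A fit with the replicate number as a block called 16 of the proteasome genes, 11 higher and 5 lower, with PSMA1 called higher (adjusted p = 0.0296 by edgeR), and for the ratio it gave -0.40.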
